A study of Mus musculus with 9 samples.

Results

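The Schlafen genes are a mouse gene family whose first members were found as brakes on lymphocyte growth. The 7 genes Slfn1, Slfn2, Slfn3, Slfn4, Slfn5, Slfn8 and Slfn9 were grouped by their symbols, as the probe sets annotated with that symbol and no other: 11 of 45101 probe sets, and 7 of 18194 genes with such a probe set. The family was selected on the levels in the same 9 arrays and in all 3 comparisons between their groups, so the levels and differences of its members are a description. No p-value is given for them, and a count of members past the fit's threshold is printed beside the share of all genes without being read as evidence.

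Expression was measured on Affymetrix mouse arrays in sorted myeloid progenitors of C57/BL6 mice aged 2 to 4 months, 3 arrays in each of 3 groups. The labels give the tissue as blood and name the sorted fraction FrII: c-Kit-positive cells, low or positive for Mac1, that lack Sca-1 and lineage markers. Wild type cells formed the first group. Cells from leukaemic mice that overexpress Sox4, a transcription factor, formed the second. The third group came from leukaemic mice labelled K/L, in which both Cebpa alleles are mutated. The product of Cebpa, C/EBPα, drives granulocyte formation. The source names of both leukaemic groups add that cells were CD45.1-negative and CD45.2-positive, which the source names of wild type cells do not. The descriptions number a mouse for each array. How Sox4 was overexpressed, and whether the mice of a leukaemic group carry separately arisen leukaemias, is not given in the sources used here.

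All values below are log2 intensities unless a linear scale is named. Array medians lay between 5.43 and 5.55, and the deposited values have a floor of 3. Replicate arrays correlated over all probe sets at r = 0.991 or more, except wild type array 3, at 0.986 with both other wild type arrays. The overexpressed gene, Sox4, had means of 3.87 ± 0.08 (wild type), 9.74 ± 0.13 (Sox4) and 10.67 ± 0.18 (K/L; SD, n = 3). Of the sort gate, Kit stood at 9.17, 9.18 and 9.22 in these groups, while Itgam, which encodes Mac1, was dim at 4.91, 4.20 and 3.83, where the 40th percentile of an array was 4.84 to 4.95. Xist, expressed in females, read 12.10, 4.68 and 11.63 on the Sox4 arrays, and Kdm5d, on the Y chromosome, 4.14, 9.91 and 9.01. Sox4 arrays 1 and 2 thus differed in both genes, and array 3 was high for both, so whether it holds a single mouse is not settled. All wild type and K/L arrays were low for Xist (5.34 or less) and high for Kdm5d (9.60 to 10.86). Sex therefore differed within the Sox4 group and between it and the others, and its part in the differences below was not tested. For the Gapdh control, the 3' to 5' signal ratio that tracks RNA quality ran from 2.68 to 2.91 on wild type arrays, from 2.22 to 2.44 on Sox4 arrays and from 1.93 to 2.00 on K/L arrays. For the actin control the ratio was 0.885 to 0.976 on wild type, 0.881 to 0.915 on Sox4 and 0.866 to 0.913 on K/L arrays. The actin ratios overlapped between the groups. The Gapdh ratio moved with the same groups as the genes below, and its part in their differences was not tested.

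Schlafen proteins share an N-terminal domain, and the mouse genes fall by length into a short form (Slfn1, Slfn2), an intermediate form (Slfn3, Slfn4) and a long form with a helicase-like part (Slfn5, Slfn8, Slfn9). Many members are induced by interferon, which signals through the receptors Ifnar1 and Ifnar2 and the kinases Jak1 and Tyk2 to transcription factors that bind the interferon-stimulated response element (ISRE). In blood cells the family is known for keeping T cells and monocytes quiescent and for its regulation during macrophage activation and maturation. The genes lie side by side on chromosome 11.

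The stretches before the gene starts are shown first, with a run searched for within the short and intermediate genes and a motif found in the long genes. All 7 members had an entry in the RefSeq promoter table (build GRCm38.p6), of which the 250 bases before the annotated start were searched. The longest run of bases common to Slfn1, Slfn2, Slfn3 and Slfn4 was ACTTCCTGG, with 9 bases, which 0.70% of 32851 such stretches of all genes held on either strand (230 stretches). It is printed in capitals, in windows of 40 bases on the plus strand, at chr11:83116731-83116770, chr11:83065042-83065081, chr11:83191273-83191312 and chr11:83175098-83175137 in the order of the genes.
Slfn1: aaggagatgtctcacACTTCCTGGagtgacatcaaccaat
Slfn2: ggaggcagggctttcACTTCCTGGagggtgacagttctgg
Slfn3: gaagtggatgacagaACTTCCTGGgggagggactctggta
Slfn4: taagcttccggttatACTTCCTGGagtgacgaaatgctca
The run began 74, 55, 42 and 73 bases before the start of these genes. Slfn1 and Slfn4 shared a longer run of 15 bases, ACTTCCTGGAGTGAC, found in 2 of the 32851 stretches. The same search within Slfn5, Slfn8 and Slfn9 gave CCTTCAA, with 7 bases, held by 3.4% of stretches. Each run came from a search of the very genes that share it, so it does not set those genes apart. Over all 250 bases Slfn4 and its neighbour Slfn3 were 44.8% identical in a global alignment, within the range of 42.9% to 50.4% of all member pairs other than Slfn8 and Slfn9.

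The 3 long genes each held an ISRE core, searched as GAAANNGAAA on both strands, and Slfn1, Slfn2, Slfn3 and Slfn4 did not hold these letters in this window. Of all stretches 2.98% held the motif (978 of 32851). It is in capitals below, read in the direction of each gene, where Slfn8 and Slfn9 carry it as its reverse complement. The stretches are chr11:82951852-82952101 on the plus strand for Slfn5, and chr11:83020811-83021060 and chr11:82991831-82992080 on the minus strand for Slfn8 and Slfn9.
Slfn5: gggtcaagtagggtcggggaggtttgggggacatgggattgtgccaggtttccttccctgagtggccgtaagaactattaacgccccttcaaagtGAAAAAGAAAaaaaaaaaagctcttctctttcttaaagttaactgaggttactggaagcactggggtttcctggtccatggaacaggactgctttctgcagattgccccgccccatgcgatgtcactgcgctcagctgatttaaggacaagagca
Slfn8: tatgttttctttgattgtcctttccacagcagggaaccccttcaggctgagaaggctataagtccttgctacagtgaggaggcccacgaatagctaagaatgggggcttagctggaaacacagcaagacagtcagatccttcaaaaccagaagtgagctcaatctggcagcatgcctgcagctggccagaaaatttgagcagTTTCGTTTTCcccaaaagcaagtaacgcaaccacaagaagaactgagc
Slfn9: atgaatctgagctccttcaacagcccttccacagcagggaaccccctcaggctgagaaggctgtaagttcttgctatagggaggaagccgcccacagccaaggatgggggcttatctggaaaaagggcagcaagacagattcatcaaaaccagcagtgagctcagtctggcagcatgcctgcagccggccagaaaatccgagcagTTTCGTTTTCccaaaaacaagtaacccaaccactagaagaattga
The motif began 155 bases before the start in Slfn5, 48 in Slfn8 and 45 in Slfn9. In Slfn5 it runs on into a stretch of A. Slfn8 and Slfn9 were 80.0% identical over the aligned 250 bases (204 of 255 columns), so their matches share a sequence and are not separate observations. The gamma-activated sequence TTCNNNGAA (7.02% of all stretches) and a SOX motif, AACAAAG (5.03%), were found in 0 of the 7 members. A C/EBP motif, TTGCNNAA (9.56%), was found in Slfn2 and Slfn3. A match is a description of letters and says nothing of a factor's binding in these cells.

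**Figure D1:**
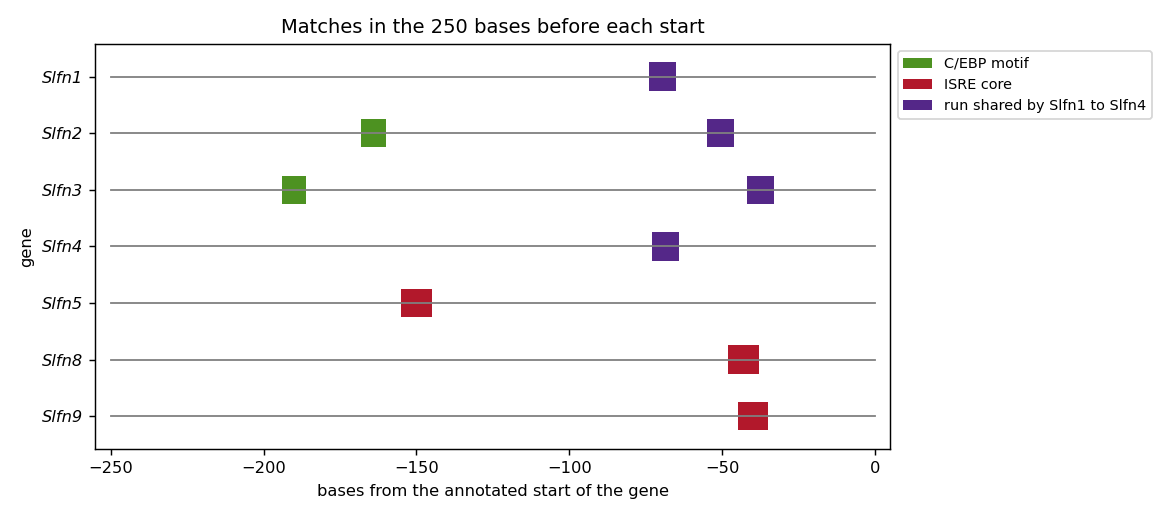
Matches in the 250 bases before the annotated start of each Schlafen gene, with the distance from the start in bases on the x axis and the genes on the y axis; boxes mark the run shared by Slfn1 to Slfn4, the ISRE core and the C/EBP motif. The shared run lies within 74 bases of the start in Slfn1 to Slfn4, and the ISRE core is seen in Slfn5, Slfn8 and Slfn9.

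Slfn4, an intermediate-length gene of myeloid cells that interferon and bacterial products induce in macrophages, was the member with by far the widest range. Its probe set (1427102_at) read 11.92, 11.77 and 11.57 on the wild type arrays, 5.72, 5.04 and 5.63 on the Sox4 arrays, and 4.87, 4.48 and 4.22 on the K/L arrays. The 3 groups did not overlap, with wild type highest and K/L lowest. Group means were 11.75 ± 0.18, 5.46 ± 0.37 and 4.52 ± 0.33 (SD, n = 3). The difference from wild type was -6.29 ± 0.21 (SE of the limma fit) for Sox4 and -7.23 ± 0.21 for K/L cells, or 78.2-fold and 150.0-fold lower on the linear scale. K/L lay below Sox4 by a difference of -0.94 ± 0.21. On the K/L side 2 of 3 arrays lay under the 40th percentile of the array, so the size of the fold rests on little signal there. Among 12826 genes tested, 3 had a lower difference than Slfn4 in Sox4 cells and 7 had one in K/L cells. In bulk samples such as these, fewer cells that express a gene and less RNA per cell cannot be told apart.

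A further probe set, 1450322_s_at, is annotated to both Slfn4 and Slfn3 and so belongs to neither by the rule. It read 9.54, 9.42 and 9.47 in wild type, 7.35, 7.54 and 6.79 in Sox4, and 6.96, 7.29 and 7.10 in K/L arrays. Wild type again stood above both leukaemias on every array, while Sox4 and K/L arrays overlapped. The difference from wild type was -2.25 for Sox4 and -2.36 for K/L, a smaller one than on the probe set of Slfn4 alone.

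Slfn3, known from T cell subsets and gut epithelium, is the gene next to Slfn4 on the chromosome and of the same length class. Its own probe set (1421644_at) read 8.15, 7.94 and 8.62 in wild type, 8.29, 8.11 and 7.95 in Sox4, and 8.17, 7.94 and 7.89 in K/L arrays. The 3 groups overlapped. The difference from wild type was -0.12 ± 0.17 in Sox4 and -0.24 ± 0.17 in K/L cells, both within the spread of the wild type arrays (SD 0.35).

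**Figure D2:**
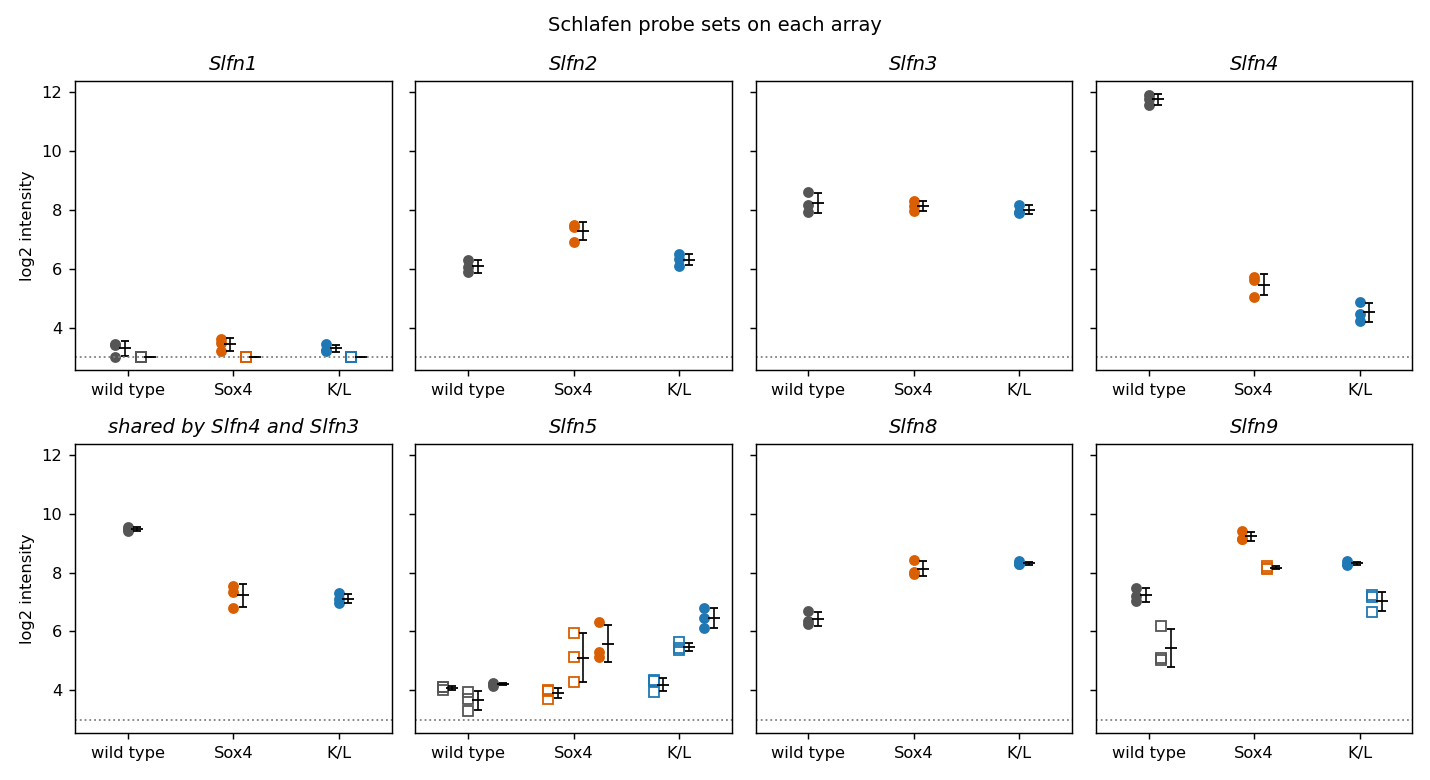
Log2 intensity (y axis) of the Schlafen probe sets on each array of the 3 groups (x axis), with the mean ± SD beside the points; filled circles show the probe set used for the gene (or the shared probe set), open squares the gene's other probe sets, and the dotted line the floor of 3. Slfn4 drops from 11.75 in wild type to 5.46 and 4.52, Slfn3 stays between 7.89 and 8.62 on all arrays, and Slfn8 and Slfn9 are higher in both leukaemias.

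Of the short genes, Slfn1, which slows T cell growth when overexpressed, gave almost no signal. Its probe set 1418612_at read 3.00, 3.43 and 3.45 in wild type, 3.49, 3.19 and 3.61 in Sox4, and 3.21, 3.44 and 3.25 in K/L arrays. The other, 1447614_at, lay at the floor of 3 on all 9 arrays. Slfn1 was below the 40th percentile on every array and was the 1 member left out by the filter on dim genes, so these arrays give no order for it.

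Slfn2, which keeps T cells and monocytes in a resting state in mice, was higher in Sox4 cells. It read 6.05, 5.89 and 6.31 in wild type, 7.41, 6.92 and 7.48 in Sox4, and 6.10, 6.50 and 6.33 in K/L arrays. All Sox4 arrays stood above all others, and wild type and K/L arrays overlapped. The Sox4 difference from wild type was 1.19 ± 0.18, or 2.28-fold, against 0.22 ± 0.18 in K/L cells, which is close to the spread within those groups (SD 0.21 and 0.20). K/L lay below Sox4 by a difference of -0.96 ± 0.18.

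The long genes were higher in both leukaemias than in wild type on the probe sets used, and of the 3 only Slfn9 had leukaemic arrays that did not overlap. Slfn8 read 6.34, 6.26 and 6.70 in wild type, 8.43, 7.95 and 8.01 in Sox4, and 8.28, 8.27 and 8.38 in K/L arrays. Both leukaemias lay above wild type on every array and overlapped with each other. Differences from wild type were 1.70 ± 0.15 in Sox4 and 1.88 ± 0.15 in K/L cells, or 3.24-fold and 3.68-fold, and the leukaemias differed by 0.18 ± 0.15.

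Slfn9, the paralog beside Slfn8, was measured by 2 probe sets. The brighter (1436472_at) read 7.04, 7.49 and 7.19 in wild type, 9.40, 9.13 and 9.15 in Sox4, and 8.29, 8.38 and 8.26 in K/L arrays. The groups did not overlap, with Sox4 highest and K/L in the middle. Its difference from wild type was 1.98 ± 0.13 in Sox4 and 1.07 ± 0.13 in K/L cells, and K/L lay below Sox4 by a difference of -0.92 ± 0.13. The dimmer probe set (1458803_at) kept this order, with means of 5.44 ± 0.65, 8.16 ± 0.05 and 7.02 ± 0.33 and differences from wild type of 2.72 and 1.59. Wild type array 3 stood apart on it, at 6.19 against 5.09 and 5.04.

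Slfn5, an interferon-induced gene whose product acts in the nucleus, was dim in wild type on all 3 of its probe sets. The brightest (1458458_at) read 4.24, 4.21 and 4.16 in wild type, 6.31, 5.14 and 5.32 in Sox4, and 6.78, 6.47 and 6.11 in K/L arrays. Both leukaemias lay above wild type and overlapped with each other, and the Sox4 arrays were spread widely (SD 0.63). Differences from wild type were 1.38 ± 0.28 in Sox4 and 2.25 ± 0.28 in K/L cells. Probe set 1456288_at gave 1.46 and 1.82, while 1442640_at stayed between 3.72 and 4.34 on all arrays with the groups overlapping. With the mean of the 3 probe sets the differences were 0.89 and 1.39. Slfn5 passed the filter on dim genes through the leukaemic arrays alone, since 0 of 3 wild type arrays lay above the 40th percentile, so a difference was built into its being tested.

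Over the members, 6 of 7 passed the filter. In the limma fit (adjusted p under 0.05 by Benjamini-Hochberg over all tested genes), 3 were called higher and 1 lower in K/L against wild type, where 29.0% and 21.6% of all tested genes were called. Against wild type, Sox4 cells had 4 called higher and 1 lower, beside 26.7% and 21.1% of all genes. For K/L against Sox4 there were 1 higher and 3 lower, beside 14.9% and 14.0% of all genes. The 1 higher was Slfn5, whose call was lost without a filter on dim genes, when its probe sets were averaged, and on leaving out any 1 of wild type arrays 1 and 2, Sox4 arrays 2 and 3 or K/L arrays 1 and 2, and which was not tested with the filter at the 60th percentile. With arrays centred on their median, the split of all genes in the last comparison was 2546 higher and 1456 lower in place of 1905 and 1797. For K/L against wild type it was 4440 higher and 2273 lower in place of 3716 and 2774, so the background shares for K/L depend on the scaling. For Sox4 against wild type it was 3519 and 2633 in place of 3427 and 2708. These contrasts were in view when the family was chosen, so nothing is read from the counts.

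The members did not move as a block along the chromosome. In chromosome order, Slfn5, Slfn9, Slfn8 and Slfn2 were higher in at least the Sox4 leukaemia, Slfn1 was at background, Slfn4 was lower in both, and Slfn3 overlapped between all groups. Slfn10-ps, a pseudogene between Slfn8 and Slfn2 and not a listed member, went with the long genes. Its means were 3.84, 4.89 and 5.13 for wild type, Sox4 and K/L. It was dim, above the 40th percentile on 0 of 3 wild type, 2 of 3 Sox4 and 2 of 3 K/L arrays. As for Slfn5, it was tested through the leukaemic arrays alone. On the far side of Slfn3, the noncoding gene AI662270 had means of 10.74, 10.75 and 10.59 for wild type, Sox4 and K/L.

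Outside the cluster, 12 of the 20 nearest genes (10 on each side) were on the arrays, and 10 were tested. In K/L cells 2 of 10 rose and 3 fell, and in Sox4 cells 1 rose and 4 fell, with medians of -0.03 and -0.28 beside 0.06 and 0.03 over all tested genes. Among all genes 29.0% rose and 21.6% fell in K/L, and 26.7% and 21.1% in Sox4 cells, so with 10 genes nothing is read from these counts. Rffl, a ubiquitin ligase gene, fell by 0.54 ± 0.09 in K/L (adjusted p = 0.000872, limma) and by 0.42 ± 0.09 in Sox4 cells (adjusted p = 0.0041, limma). Lig3, which encodes a DNA ligase, fell by 0.47 ± 0.12 and 0.33 ± 0.12 (adjusted p = 0.00915 and 0.0461), and Zfp830 by 0.34 ± 0.09 and 0.33 ± 0.09 (adjusted p = 0.0112 and 0.0126). In K/L cells Rad51d, a gene of homologous recombination, rose by 0.58 ± 0.10 (adjusted p = 0.000965) and Nle1, of ribosome assembly, by 0.37 ± 0.12 (adjusted p = 0.024). In Sox4 cells Ap2b1, an adaptor gene of endocytosis, rose by 0.53 ± 0.12 (adjusted p = 0.00505) and Fndc8 fell by 0.31 ± 0.11 (adjusted p = 0.0336). Rad51d was the 1 neighbour past the test between the leukaemias, higher in K/L by 0.56 ± 0.10 (adjusted p = 0.00228). All neighbour differences from wild type lay between -0.54 and 0.58, against -7.23 to 2.25 for the tested Schlafen genes. The 5 neighbours past the test in Sox4 cells became 3 when wild type array 1, wild type array 2, Sox4 array 2 or Sox4 array 3 was left out, and with the mean of all probe sets 3 were past it in each comparison with wild type. The 1 past it between the leukaemias was 2 without Sox4 array 1.

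**Figure D3:**
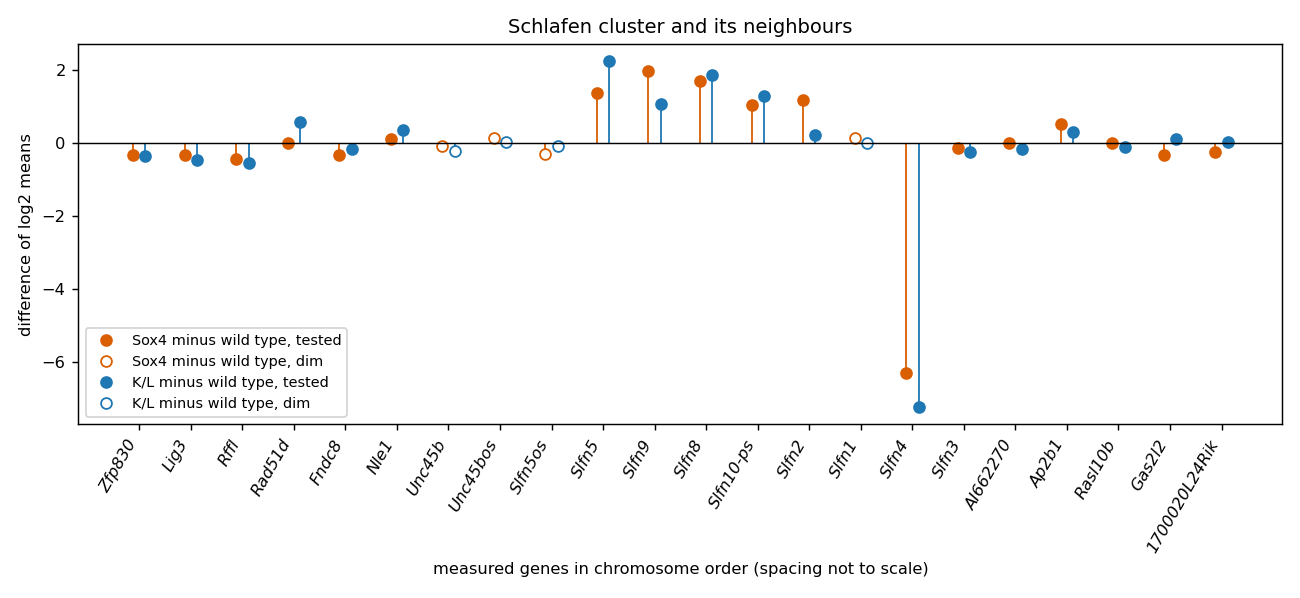
Difference of group means from wild type (y axis, log2) for the measured genes of the Schlafen cluster and its neighbours in chromosome order (x axis, not to scale), Sox4 in orange and K/L in blue, with open circles for genes too dim to be tested. Slfn4 stands at -6.29 and -7.23 between Slfn1 and Slfn3, which are near 0, and the neighbours outside the cluster lie between -0.54 and 0.58.

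Interferon-stimulated genes, the programme to which many Schlafen genes belong, were examined through a list of 37, of which 32 were tested. In Sox4 cells 22 of 32 rose and 3 fell (68.8% and 9.38%, beside 26.7% and 21.1% of all genes), with a median difference of 0.71 beside 0.03. In K/L cells 16 of 32 rose and 2 fell (beside 29.0% and 21.6% of all genes), with a median of 0.49 beside 0.06. Both comparisons share the wild type arrays. The genes counted as higher include Oas3, Oasl1 and Oasl2 in both leukaemias, and Mx1 in Sox4 cells alone. Their wild type means of 4.22, 4.19, 4.14 and 4.52 lay below the level set by the filter on dim genes. They were tested through the arrays where they are high, so a difference was built into their being tested. The shares were not recounted without them.

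Dtx3l and Parp14, which act together with ADP-ribosylation in the interferon response, rose in both. Dtx3l rose by 1.11 ± 0.12 in Sox4 (adjusted p = 5.1e-05, limma) and 0.96 ± 0.12 in K/L cells (adjusted p = 0.000124). Parp14 rose by 2.05 ± 0.22 in Sox4 cells (adjusted p = 4.34e-05). Bst2, which tethers virus particles to the cell surface, rose by 1.22 ± 0.12 there (adjusted p = 3.2e-05), and Gbp2, a guanylate-binding protein gene, by 1.16 ± 0.13 (adjusted p = 5.98e-05). Oasl1, of the oligoadenylate synthetase family, rose by 2.42 ± 0.26 in K/L cells (adjusted p = 4.73e-05), from 4.19 in wild type to 6.60. The wild type mean of Oasl1 lay under the 40th percentile of the arrays, so, as for Slfn5, it was tested through the arrays where it is high.

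Between the leukaemias, 12 of the 32 were lower and 4 higher in K/L than in Sox4 cells (37.5% and 12.5%, beside 14.0% and 14.9%), with a median of -0.32. Without Sox4 array 1, and also without Sox4 array 3, the 16 became 9 (5 lower, 4 higher), and without any 1 of the K/L arrays they became 11 (7 lower, 4 higher). Ifit2, an RNA-binding antiviral gene, was lower in K/L by a difference of -2.23 ± 0.18 (adjusted p = 1.06e-05, limma), and Samd9l, an antiviral and growth-restraining gene, was higher by 2.12 ± 0.14 (adjusted p = 2.62e-06). Ifih1, an RNA sensor, and Mx1, an antiviral GTPase gene, were lower by -0.76 ± 0.12 and -0.99 ± 0.18 (adjusted p = 0.00117 and 0.00236). Mx1 was tested through the Sox4 arrays, since its means of 4.52 in wild type and 4.62 in K/L cells lay under the 40th percentile.

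**Figure D4:**
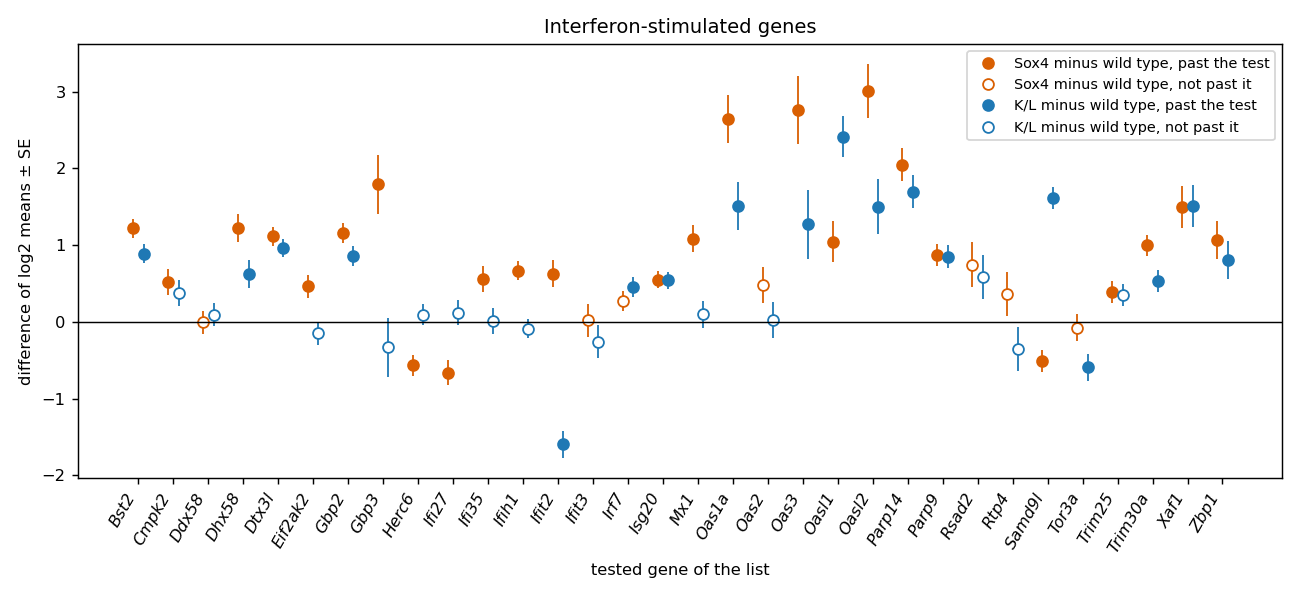
Difference from wild type ± SE of the limma fit (y axis, log2) for the 32 tested interferon-stimulated genes (x axis), Sox4 in orange and K/L in blue; filled points passed an adjusted p of 0.05. In Sox4 cells 22 genes lie above 0 and past the test and in K/L cells 16, while Ifit2 and Samd9l lie on opposite sides of 0 in the leukaemias.

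Upstream of these genes, 18 of 20 interferon receptor and JAK-STAT genes were tested. In K/L cells 9 rose and 3 fell, and in Sox4 cells 5 rose and 3 fell, with medians of 0.43 and 0.11 beside 0.06 and 0.03 over all genes. The Sox4 shares of 27.8% higher and 16.7% lower were near the 26.7% and 21.1% of all genes, and the K/L shares were 9 of 18 and 16.7% beside 29.0% and 21.6%. Tyk2, a kinase of the type I interferon receptor, rose from 6.91 in wild type to 8.12 in K/L (adjusted p = 2.01e-05, limma) and 8.41 in Sox4 cells (adjusted p = 5.28e-06). Ifnar2, a chain of that receptor, rose by 1.00 ± 0.11 in K/L cells (adjusted p = 5.82e-05). Ifngr2, of the type II receptor, fell by 1.03 ± 0.11 in K/L cells (adjusted p = 5.79e-05) and by 0.75 ± 0.11 in Sox4 cells (adjusted p = 0.000463). Ifngr1, its partner, fell by 0.70 ± 0.10 in Sox4 cells (adjusted p = 0.000326). Ptpn6, a phosphatase gene that dampens cytokine signals, rose by 1.24 ± 0.08 in K/L cells (adjusted p = 1.45e-06), and Irf8, a monocyte and dendritic cell factor, rose by 4.03 ± 0.41 in Sox4 cells (adjusted p = 3.33e-05).

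Between the leukaemias 6 of these 18 genes were higher and 2 lower in K/L (33.3% and 11.1%, beside 14.9% and 14.0% of all genes). The 8 became 3 without Sox4 array 1, 5 without Sox4 array 2, and 4, 5 and 4 without K/L arrays 1, 2 and 3. Ptpn6 and Ifnar2 were higher in K/L by 1.41 ± 0.08 and 0.72 ± 0.11 (adjusted p = 9.2e-07 and 0.000997, limma), and Irf8 and Jak2 were lower by -2.55 ± 0.41 and -0.37 ± 0.09 (adjusted p = 0.00118 and 0.0137).

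Genes of lymphocyte quiescence, the state that Slfn2 helps to hold, had 19 of 21 members tested. In K/L cells 9 rose and 1 fell, in Sox4 cells 8 rose and 1 fell, and the medians were 0.57 and 0.58 beside 0.06 and 0.03 over all genes. As shares these are 47.4% and 5.26% in K/L, beside 29.0% and 21.6% of all genes, and 42.1% and 5.26% in Sox4, beside 26.7% and 21.1%. The cell cycle inhibitor genes Cdkn2c and Cdkn1b rose by 3.11 ± 0.15 and 4.24 ± 0.27 in K/L (adjusted p = 1.96e-07 and 1.38e-06, limma) and by 4.12 ± 0.15 and 3.82 ± 0.27 in Sox4 cells (adjusted p = 5.02e-08 and 3.31e-06). Tob1, an antiproliferative gene, and Foxo3, a quiescence factor, rose in K/L cells by 1.59 ± 0.12 and 1.10 ± 0.17 (adjusted p = 4.59e-06 and 0.000503). Klf4 rose by 3.48 ± 0.30 in Sox4 cells (adjusted p = 1.19e-05), and Klf2, which holds T cells at rest, rose from 5.65 to 8.14 (adjusted p = 2.4e-05). The wild type means of Cdkn2c (4.82), Tob1 (4.68) and Klf4 (4.61) lay under the 40th percentile, so these genes were tested through the leukaemic arrays. The same holds for S1pr1 (4.26), which is among the genes that rose in Sox4 cells. Between the leukaemias 3 were higher and 4 lower in K/L (15.8% and 21.1%, beside 14.9% and 14.0% of all genes). Among them, Klf4 differed by -2.91 ± 0.30, Klf2 by -1.89 ± 0.24, Cdkn2c by -1.002 ± 0.149 and Tob1 by 0.95 ± 0.12 (adjusted p = 6.67e-05, 0.000269, 0.000718 and 0.00025, limma). The 7 became 4 without Sox4 array 1.

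The shares of genes past the test were close to the background among genes with an ISRE core in the stretch before the start. Of 322 tested genes outside the family with the motif, 28.6% were higher and 19.3% lower in K/L than in wild type cells, beside 30.0% and 21.2% of the 10390 tested genes with a promoter entry. In Sox4 cells the shares were 28.9% and 18.3%, beside 27.2% and 20.8%. For K/L against Sox4 they were 11.2% and 17.1%, beside 14.9% and 13.8%. Of the interferon-stimulated list, 10 of 26 genes with an entry held the motif, beside 3.46% of all genes with an entry (936 of 27025).

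The genes most like each member were found by the smallest root mean square difference over the 9 arrays, after centring each gene on its mean. For Slfn4 they were Bmpr1a, Ugt8a and Ces1d, with differences of 0.41, 0.59 and 0.66. Ces1d went from 11.99 in wild type to 4.23 in Sox4 and 4.14 in K/L cells, and Ugt8a from 9.07 to the floor of 3 in both. The Schlafen gene nearest to Slfn4 in this measure was Slfn3, at 3.14.

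For Slfn2 the 3 genes were Hlx, Pcbd2 and Mx1 (0.13 to 0.17), and for Slfn9 they were Atp10a, D630004K10Rik and Tmem273 (0.14 to 0.15). Slfn8 was most like Epsti1, Focad and Grn (0.15 to 0.17), and Slfn5 was most like Oasl1, Tcam1 and Txnrd3 (0.27 to 0.30). Within the family the closest pairs were Slfn5 with Slfn8 (0.40), Slfn2 with Slfn9 (0.45) and Slfn8 with Slfn9 (0.51). Slfn3 spanned 0.24 between its group means and Slfn1 was not tested, so neither was compared.

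Markers of other blood cells moved with the groups as well. The summed linear intensity of 10 late neutrophil markers was 15270 to 20770 in wild type, 4186 to 4464 in Sox4 and 287.7 to 436.8 in K/L arrays, the same order of groups as for Slfn4. In K/L cells 6 of these 10 fell and 0 rose (beside 21.6% and 29.0% of all genes). In Sox4 cells 3 fell and 6 rose (beside 21.1% and 26.7%). The sum is carried by S100a8 and S100a9, at 12.64 and 13.47 in wild type, 10.45 and 10.85 in Sox4, and 4.64 and 6.24 in K/L cells, while Ltf was at 5.04, 7.37 and 4.97.

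The sum of 10 monocyte or macrophage markers was 8269 to 8651 in wild type, 11040 to 12190 in Sox4 and 6595 to 8004 in K/L arrays. Of 9 tested, 7 were higher and 2 lower in Sox4 cells (beside 26.7% and 21.1% of all genes). In K/L cells 5 were higher and 2 lower (beside 29.0% and 21.6%). The 2 lower were Lyz2 and Adgre1 in both leukaemias. Lyz2 was the brightest of these markers in every group, with means of 12.44 (wild type), 11.5 (Sox4) and 10.93 (K/L). The monocyte sum leans on Lyz2, so its lower value on K/L arrays does not mean that most of these markers fell. The sum of 9 T cell markers was 913.5 to 1188 in wild type, 266.4 to 308.6 in Sox4 and 396.9 to 417.4 in K/L arrays. It was carried by Bcl11b and Lat, at 9.07 and 8.02 in wild type, while Cd3e and Cd3g lay at 4.95 and 3.95. For B cells (8 markers) the sums were 278.4 to 306.1, 498.0 to 600.8 and 469.8 to 512.3. They moved with Cd79b (6.70, 8.60 and 8.08), while Pax5 stood at 5.07, 4.84 and 4.79. Of 4 B cell markers tested, 1 was higher and 1 lower in Sox4 cells (beside 26.7% and 21.1% of all genes). In K/L cells 2 were higher and 1 lower (beside 29.0% and 21.6%). For dendritic cells (10 markers) the sums were 656.6 to 773.4, 1668 to 1849 and 721.0 to 953.8. Of 7 mast cell or basophil markers they were 1224 to 1827, 2139 to 2828 and 5912 to 6503. That sum is carried largely by Cpa3, Mcpt8 and Gata2. They stood at 8.46, 8.93 and 8.77 in wild type, 9.38, 8.77 and 9.74 in Sox4, and 11.93, 10.02 and 10.12 in K/L cells. Ms4a2, a chain of the IgE receptor, was lower in K/L by a difference of -1.26 ± 0.20 (adjusted p = 0.000576, limma). In Sox4 cells Ms4a2 was higher by 2.34 ± 0.20 (adjusted p = 1.1e-05, limma).

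In Sox4 cells 5 of 6 tested megakaryocyte markers rose and 1 fell, 3 of 5 erythroid markers rose and 0 fell, and 2 of 3 NK cell markers rose and 0 fell. Among all genes 26.7% rose and 21.1% fell in Sox4 cells. Pf4, a platelet chemokine gene, stood at 10.24 in Sox4 cells against 3.56 in wild type and 3.64 in K/L cells, and Car1, an erythroid carbonic anhydrase gene, at 8.01 against 4.18 in both others. The wild type and K/L means of Pf4, Car1, Gp5 (4.26 and 4.23), Ermap (4.66 and 4.65) and Gzmb (3.84 and 4.03) lay under the 40th percentile. These risers were tested through the Sox4 arrays, so a difference was built into their being tested. The shares were not recounted without them. Slfn2 and Slfn9 were also highest in Sox4 cells. Of the tested markers in these lists 0 rose in K/L cells, while 2 of 6 megakaryocyte, 1 of 5 erythroid and 0 of 3 NK cell markers fell. Among all genes 29.0% rose and 21.6% fell in K/L cells. With so few markers nothing is read from these counts. The summed intensities were 2119 to 2375, 2062 to 3062 and 2076 to 2504 for 7 megakaryocyte markers, in the order wild type, Sox4 and K/L. For 8 erythroid markers they were 2316 to 2685, 2269 to 2794 and 1408 to 1665, and for 6 NK cell markers 2209 to 2686, 2611 to 2959 and 2326 to 2371. The megakaryocyte sum was carried by Itgb3 (10.95, 9.70 and 11.03), which fell in Sox4 cells, with Pf4 added there. Tfrc (11.19, 10.92 and 10.37) carried the erythroid sum and Nkg7 (10.94, 11.02 and 10.80) the NK cell sum. In each of the marker lists 0 markers were at the floor on all 9 arrays. However, 3 of 6 NK cell, 2 of 8 erythroid, 1 of 7 megakaryocyte and 4 of 8 B cell markers lay below the 40th percentile on all arrays. The part of any of these cell types in the levels of the Schlafen genes was not tested.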

How the data were processed

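The authors deposited 1 table of intensity values on a linear scale for 45101 probe sets and 9 arrays, with a floor of 8. Per the submitters' processing notes the tool was RMA; its version and any later scaling are not stated there. Values were log2 transformed. A platform annotation of 2016 gave 34958 probe sets exactly 1 symbol (932 had several, 9211 none), and 34754 were checked by gene ID against a gene table of GRCm38.p6, which also gave the chromosome order. A gene was represented by its probe set of highest mean, and tested if 3 of 9 arrays exceeded the 40th percentile of the array (12826 genes).

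Groups came from the titles. A limma model (version 3.58.1, R 4.3.3) held the 3 groups and no other term, on all 9 arrays (residual df 6, prior df 3.71). Calls were made at 0.05 after Benjamini-Hochberg adjustment over every tested gene. The limma fit was tested on simulated data for K/L against wild type, and the other steps were not. The smallest exact p for 3 against 3 arrays is 0.1, so none is given. p-values measure the spread between these arrays, whose number limits the precision. The members, gene lists and neighbour rule were chosen with earlier results of these data known. Named list genes are up to 4 per list and comparison with the smallest p, all neighbours past the test, and the 3 genes most like each member whose group means span at least 1. Some list genes (Bst2) are in 2 lists. Promoters were aligned with Biopython 1.88, and the genes searched for shared runs were grouped by length class with their levels known. Alternatives were a replicate block, 2 other scalings, 2 other filters, the mean of all probe sets and leaving out each array.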

Additional observations from a re-analysis of the deposited data

Results flagged for a closer look

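For 14 of the list genes and neighbours named, the effects of the leukaemias against wild type differed. The test was a direct limma comparison of K/L with Sox4, at an adjusted p under 0.05. All but Oasl1 were among the genes named for passing this same test, so nothing is read from their count. Over all tested genes, 14.9% were called higher and 14.0% lower in K/L than in Sox4 cells. The K/L effect was above the Sox4 effect for Samd9l (2.12), Ptpn6 (1.41), Oasl1 (1.37), Tob1 (0.95), Ifnar2 (0.72) and Rad51d (0.56). It was below the Sox4 effect for Klf4 (-2.91), Irf8 (-2.55), Ifit2 (-2.23), Klf2 (-1.89), Cdkn2c (-1.002), Mx1 (-0.99), Ifih1 (-0.76) and Jak2 (-0.37). Samd9l and Ifit2 lay on opposite sides of wild type in the leukaemias. Means for wild type, Sox4 and K/L were 6.11, 5.60 and 7.72 for Samd9l, and 7.57, 8.20 and 5.98 for Ifit2. No Schlafen probe set lay above wild type on every array of 1 leukaemia and below it on every array of the other.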

How the results depend on the processing

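Of 126 member differences under the other settings, 123 moved by less than the spread between replicates, and so did all 189 with 1 array left out; 0 called differences changed sign. Of the calls of members, only that of Slfn5 between K/L and Sox4 was lost, in 6 of 9 fits with 1 array left out and in 2 under the other settings; Slfn5 was not tested with the filter at the 60th percentile. The 3 that moved were with the mean of all probe sets: Slfn5 in K/L (1.39) and Slfn9 in K/L (1.33) and Sox4 cells (2.35). Of 90 list and all-gene counts under the other settings, 88 stayed within 1.5 times. The others were the neighbours past the test with the mean of all probe sets, 3 in K/L and 3 in Sox4 cells against wild type. With 1 array left out, 122 of 135 counts stayed within 1.5 times. Between K/L and Sox4 the ranges were 9 to 17 interferon-stimulated genes, 3 to 9 interferon receptor and JAK-STAT genes, 4 to 10 quiescence genes and 1 to 2 neighbours, and 3 to 5 neighbours passed in Sox4 cells against wild type. The cause of these shifts was not tested beyond having fewer arrays.

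Same-numbered arrays of different groups did not deviate together (9 correlations of -0.02 to 0.08), so the numbers were not taken as pairs. With the replicate number as a block, 6369, 5999 and 3503 genes passed for K/L against wild type, Sox4 against wild type and K/L against Sox4, in place of 6490, 6135 and 3702. Signal near the floor limits Slfn1, and the wild type side of Slfn5 and K/L side of Slfn4.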
